A study of Homo sapiens with 6 samples.

Results

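Sialyltransferases are the enzymes that end glycan chains with sialic acid, and 10 of them were examined here: ST6GALNAC2, ST6GALNAC3, ST6GALNAC4, ST6GALNAC6, ST6GAL1, ST3GAL1, ST3GAL2, ST3GAL4, ST3GAL5 and ST8SIA4. They were taken by gene symbol, all 10 were present among the 17513 listed genes, and all 10 were among the 13555 genes with enough counts to be tested. ST6GALNAC3 was chosen because its counts were higher in one group, so its difference is given below as a description with no p-value. The question for the other 9 was whether they shared that difference.

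RNA sequencing of polyadenylated RNA gave 6 libraries in 2 groups of 3. By the series design text, the RNA came from macrophages made from the human monocytic leukemia line THP1. For 48 h they were kept in conditioned medium of the esophageal squamous carcinoma line KYSE150, whose cells carried either the hairpin shSPP1#2 or shNC. SPP1 encodes the secreted glycoprotein osteopontin. The groups are called shSPP1#2 medium and shNC medium here, as the hairpin was in the KYSE150 cells, and 1 hairpin stands for the knockdown. All 6 libraries shared the THP1 origin and the 48 h in KYSE150 medium, and medium from cells without a hairpin was not analysed here. The labels do not say whether the 3 replicates of a group were separate cultures. The p-values below therefore reflect the spread among these libraries, which could be technical.

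The sample labels name KYSE150 itself, and the cell type was therefore checked by markers. Of 16 monocyte and macrophage markers, 13 reached 1 FPKM (fragments scaled by transcript length and library size) in every library, with CD14 at 181 to 191 FPKM. MRC1 and C1QB, also on that list, lay below 0.1, and C1QA was at 0.14 to 0.4 FPKM. Of 13 squamous epithelial markers, 0 or 1 reached 1 FPKM, and KRT5, KRT14, EPCAM and SFN were below 0.1 FPKM in every library. The squamous markers summed to 2.78 to 2.89 FPKM with shNC medium and 2.09 to 2.85 with shSPP1#2 medium. The markers thus fit cells of the monocyte and macrophage lineage, to which the cells of the design text belong, and not the line in the sample labels. Whether the cells were macrophages rather than monocytes was not tested. Among markers of other cell types, 4 of 8 for fibroblasts, 1 of 5 for endothelium and 0 of 5 for B cells reached 1 FPKM. So did 2 or 3 of the 3 T and NK cell markers present. The lymphocyte gene GNLY stood at 214 to 274 FPKM, and PECAM1 of the endothelial list at 132 to 142 FPKM. The part of such cells in the results was not tested. Total estimated counts were 18113591 to 20626346 per library. These are bulk libraries, in which fewer cells of a type and less RNA per cell cannot be told apart.

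Each sialyltransferase moves sialic acid from the activated donor CMP-sialic acid to a particular acceptor sugar in the Golgi. The ST3GAL enzymes attach it to galactose through an alpha2,3 bond, ST6GAL enzymes attach it to galactose through an alpha2,6 bond, ST6GALNAC enzymes attach it to N-acetylgalactosamine through an alpha2,6 bond, and ST8SIA enzymes attach it to another sialic acid through an alpha2,8 bond. On macrophages and their targets, these caps are read by Siglecs, a family of sialic acid receptors, and by selectins.

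ST6GALNAC3 adds sialic acid to the N-acetylgalactosamine of chains that already carry an alpha2,3-linked sialic acid, on O-glycans and on gangliosides, which are sialylated glycolipids. The gene (Entrez 256435) lies on chr1:76074719-76634601, plus strand (GENCODE v29, GRCh38), and no exonic base of it is shared with another annotated gene. GENCODE lists 3 transcripts of it. Their junctions are shown because counts and FPKM of this gene, which differ by transcript length, diverged between libraries. Transcripts 201 (protein coding, 5 exons, 6861 bases), 202 (processed transcript, 3 exons, 861 bases) and 203 (protein coding, 3 exons, 617 bases) share the exon at chr1:76412008-76412417. Each sequence gives the last 30 bases of that exon in lower case and the first bases of the next exon, up to 30, in capitals.
ST6GALNAC3-201: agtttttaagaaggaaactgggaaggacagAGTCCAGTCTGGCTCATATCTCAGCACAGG
ST6GALNAC3-202: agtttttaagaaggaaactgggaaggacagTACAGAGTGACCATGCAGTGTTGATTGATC
ST6GALNAC3-203: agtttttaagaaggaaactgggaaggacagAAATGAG
The next exon is at chr1:76627452-76627559 in 201, at chr1:76576846-76577209 in 202 and at chr1:76412997-76413003 in 203, where it is only 7 bases long. Sequence and exons were read from the reference, not from these libraries, and reads over the junctions were not analysed here.

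With shNC medium, ST6GALNAC3 had 61.65, 47.95 and 66.51 estimated counts in replicates 1 to 3. With shSPP1#2 medium it had 125.38, 83.19 and 101.56. Every shSPP1#2 library lay above every shNC library, and this gap is what the gene was selected on. In CPM, the counts scaled to TMM library size, the means were 2.98 ± 0.284 (SD, n = 3) and 5.05 ± 0.957 (SD, n = 3). Every shSPP1#2 library was higher in CPM too, as was so for 5.63% of all tested genes, while 5.5% were lower in every library. The edgeR estimate was 1.69-fold (95% interval 1.34 to 2.14), a log2 fold change of 0.76 with a standard error of 0.16. Because the gene was chosen for this difference, the interval is a description and no test of it. At 48 to 125 counts it had the fewest reads of the 10 genes, and the other 9 had 207 to 2799 per library.

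The length-scaled values separated the groups less clearly. ST6GALNAC3 stood at 0.72, 0.40 and 0.97 FPKM with shNC medium and at 1.61, 0.75 and 0.88 FPKM with shSPP1#2 medium. The groups overlapped, since shNC replicate 3 exceeded 2 of the 3 shSPP1#2 libraries. Mean FPKM was 0.697 ± 0.286 (SD, n = 3) against 1.08 ± 0.464 (SD, n = 3), a ratio of 1.55. Without shSPP1#2 replicate 1 the shSPP1#2 mean was 0.815 FPKM and the ratio 1.17, while the ratio of mean CPM was 1.53 without that library and 1.69 with it. Thus the count difference was present in all 3 shSPP1#2 libraries, whereas much of the FPKM difference came from 1 library.

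Dividing counts by FPKM and by the library total gives the transcript length that the deposited values imply for a gene in a library. For ST6GALNAC3 this implied length was 4182, 6618 and 3324 bases with shNC medium and 3785, 5491 and 5663 bases with shSPP1#2 medium. The groups overlapped, and the longest was 1.99 times the shortest. Among the other 9 sialyltransferases that ratio was 1 to 1.07. Of 11878 genes with at least 0.4 FPKM in every library, a minimum set after the values were seen, 6 (0.0505%) reached 1.99, ST6GALNAC3 among them, and the median was 1.02. Even among the 2026 of these genes with a mean of 0.4 to 2 FPKM the median was 1.05, with the same count of 6 (0.296%). The implied lengths fall between those of the short and long transcripts annotated for the gene. Values per transcript were not analysed here, so the part of transcript use in the gap between counts and FPKM was not tested.

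**Figure D1:**
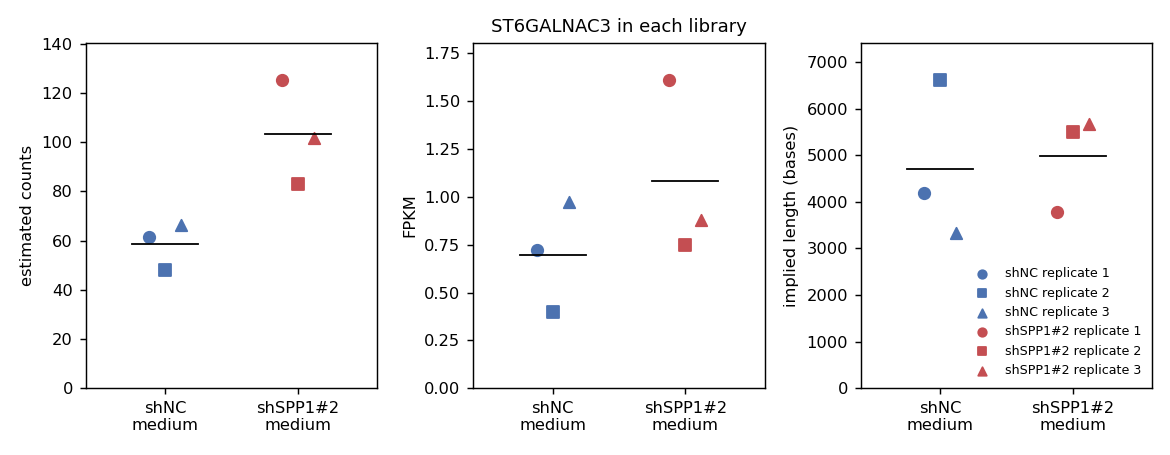
ST6GALNAC3 in each of the 6 libraries as estimated counts (left), FPKM (middle) and the implied transcript length in bases (right), with group means as lines. Counts separate the groups (48 to 66.5 against 83.2 to 125), whereas FPKM and implied length overlap.

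No gene of the 13555 tested was called at an edgeR adjusted p below 0.05, and so none of the other 3 ST6GALNAC enzymes of the list. ST6GALNAC4 acts on the same sialylated O-glycan acceptor, which makes it the nearest counterpart of ST6GALNAC3 in the list. It had 46.58, 45.77 and 47.49 FPKM with shNC medium and 45.93, 48.33 and 46.98 with shSPP1#2 medium. The 2 groups ran through each other, and its log2 fold change in counts was 0.0049 (95% interval -0.091 to 0.10; edgeR adjusted p = 0.997). Its interval allows a difference of about 0.1 on the log2 scale in either direction.

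ST6GALNAC6, which sialylates the N-acetylgalactosamine of gangliosides, was at 53.76, 57.18 and 56.05 FPKM with shNC medium. With shSPP1#2 medium it was at 53.59, 53.98 and 56.01 FPKM. The ranges overlapped, with a log2 fold change in counts of -0.035 (95% interval -0.13 to 0.058; edgeR adjusted p = 0.927). This gene shares 47% of its annotated exonic bases with another gene on the same strand. How far this affects its counts was not tested.

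ST6GALNAC2 sialylates the first sugar of O-glycans. It was at 5.84, 6.44 and 6.44 FPKM with shNC medium and 6.54, 6.94 and 6.72 FPKM with shSPP1#2 medium. On this scale every shSPP1#2 library was higher, as was so for 5.5% of all tested genes, while 5.05% were lower in every library. In CPM its groups overlapped, at 10.1, 12.1 and 11.6 against 11.5, 12.6 and 11.9. The log2 fold change in counts was 0.096 (95% interval -0.099 to 0.29), and it did not pass (edgeR adjusted p = 0.898). Annotated neighbours share 57.2% of its exonic bases, on both strands, and the strand setting of the authors' counting is not given here.

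ST6GAL1 caps the galactose of N-glycans with alpha2,6-linked sialic acid, the linkage best recognized by the B cell Siglec CD22. It had 6.74, 5.93 and 6.19 FPKM with shNC medium and 6.44, 6.65 and 7.04 FPKM with shSPP1#2 medium, which overlap. In CPM it had 28.7, 25.5 and 26.7 against 29.1, 28.9 and 29.7, so that all 3 shSPP1#2 libraries were higher, by a small margin. Of all tested genes, 5.63% were likewise higher in every shSPP1#2 library. The log2 fold change of ST6GAL1 was 0.12 with a standard error of 0.0658 (95% interval -0.023 to 0.25; edgeR adjusted p = 0.789), the highest estimate among the 9.

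Among the alpha2,3 enzymes, ST3GAL1 and ST3GAL2 cap the core galactose of O-glycans, and ST3GAL1 makes the acceptor that ST6GALNAC3 and ST6GALNAC4 use. ST3GAL1 was at 17.21, 18.91 and 19.60 FPKM with shNC medium and 19.20, 19.09 and 18.79 with shSPP1#2 medium. Its shSPP1#2 libraries all fell inside the shNC range (log2 fold change 0.03, 95% interval -0.078 to 0.14; edgeR adjusted p = 0.955). ST3GAL2 was at 9.34, 10.16 and 10.26 FPKM against 9.46, 9.91 and 9.79. It too stayed within the shNC range (log2 fold change -0.035, 95% interval -0.14 to 0.071; edgeR adjusted p = 0.946).

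ST3GAL4 caps N-acetyllactosamine chains and helps to build the sialyl Lewis x ligands of selectins. In CPM it had 38, 39 and 37.6 with shNC medium and 33.8, 35.9 and 37.1 with shSPP1#2 medium, lower in all 3 libraries, as were 5.5% of all tested genes. In FPKM it had 21.57, 21.73 and 21.20 against 19.13, 20.15 and 21.28, where shSPP1#2 replicate 3 reached into the shNC range. The log2 fold change in counts was -0.10 with a standard error of 0.058 (95% interval -0.22 to 0.021), and it did not pass (edgeR adjusted p = 0.792). It had the lowest estimate of the 9.

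ST3GAL5 makes the ganglioside GM3, from which more complex gangliosides are built. Levels were 21.53, 20.37 and 20.69 FPKM with shNC medium and 21.98, 19.89 and 20.99 FPKM with shSPP1#2 medium. The shSPP1#2 libraries spanned the whole shNC range, with a log2 fold change in counts of 0.015 (95% interval -0.097 to 0.13; edgeR adjusted p = 0.979).

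ST8SIA4 builds polysialic acid, a long alpha2,8-linked chain known on NCAM1 and, in myeloid cells, on NRP2 and CCR7. It was at 6.02, 5.51 and 5.87 FPKM with shNC medium and 5.56, 5.60 and 5.80 FPKM with shSPP1#2 medium. All 3 shSPP1#2 values lay inside the shNC range (log2 fold change -0.025, 95% interval -0.15 to 0.10; edgeR adjusted p = 0.968).

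At an edgeR adjusted p below 0.05, 0 of these 9 genes were called, and 0 of 9 had an unadjusted p below 0.05. Over all 13555 tested genes the same rules called 0% (0 genes) and 6.85% (928 genes). DESeq2 called 13 of the 4265 genes to which it gave an adjusted p (0.305%), with values for 5 of the 9 and none of them called, and limma on log2(FPKM + 1) called 0 of 11020 (0%). The 9 log2 fold changes ran from -0.10 to 0.12, with 5 above 0, 4 below, and a median of 0.0049. Over all tested genes 49.9% were above 0, and the median was -0.0003. The 9 intervals together span -0.22 to 0.29, or 0.857-fold to 1.22-fold. These intervals still leave room for differences of up to about that size, and a p that misses the threshold does not show equal levels.

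**Figure D2:**
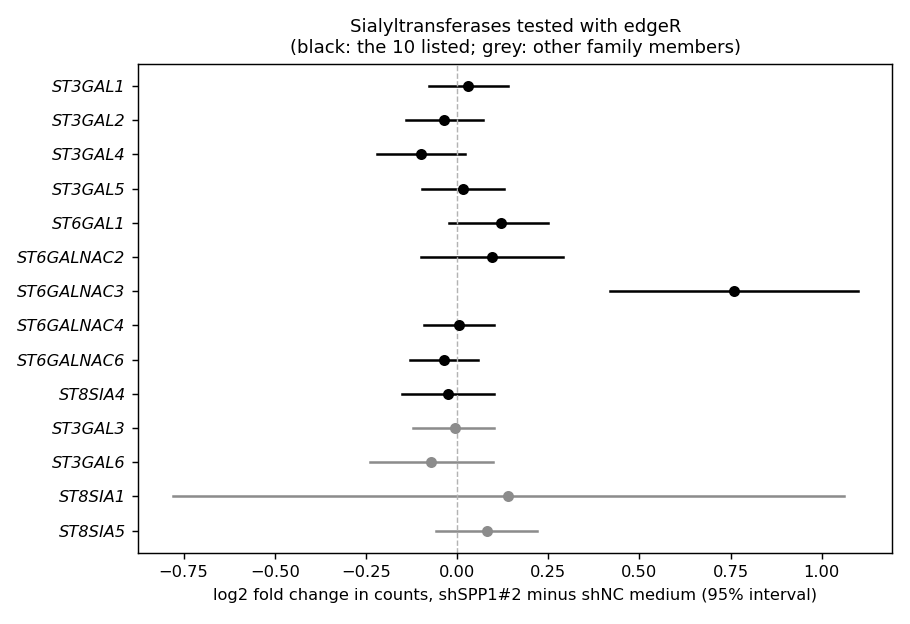
Log2 fold change in counts, shSPP1#2 minus shNC medium, for the 14 sialyltransferases tested with edgeR (points) with 95% intervals (lines), the 10 listed genes in black and the other family members in grey. The intervals of the 9 listed genes other than ST6GALNAC3, which was chosen for its difference, include 0 and lie between -0.22 and 0.29.

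Per length, the 10 genes differed from each other far more than the groups did. ST6GALNAC6 was the most abundant, at 55.1 ± 1.51 FPKM (SD, n = 6), followed by ST6GALNAC4 at 46.8 ± 0.97. Next came the group of ST3GAL5 at 20.9 ± 0.764, ST3GAL4 at 20.8 ± 1 and ST3GAL1 at 18.8 ± 0.828 FPKM, whose neighbours overlapped. ST3GAL2 stood apart at 9.82 ± 0.368 FPKM. ST6GAL1 at 6.5 ± 0.399, ST6GALNAC2 at 6.49 ± 0.37 and ST8SIA4 at 5.73 ± 0.201 FPKM again overlapped from neighbour to neighbour. ST6GALNAC3 was the lowest, at 0.888 ± 0.403 FPKM, 62 times below ST6GALNAC6. Of the 9 neighbouring pairs in this order, 5 did not overlap between libraries. The order of means was the same when FPKM was rescaled to TPM, a step that cannot change the order within a library. With single libraries left out, ST6GAL1 could swap with ST6GALNAC2, and ST3GAL5 with ST3GAL4.

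**Figure D3:**
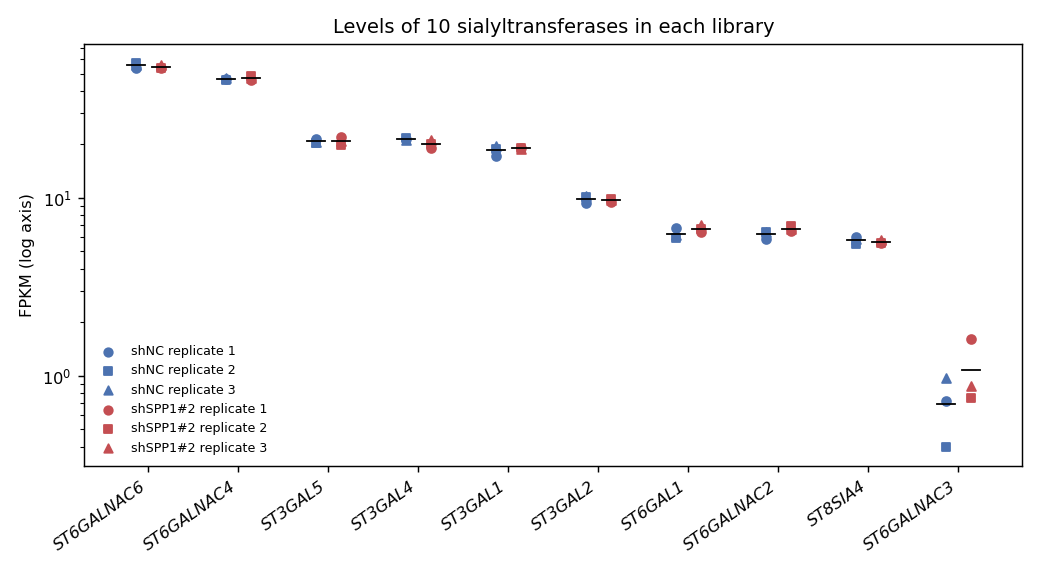
FPKM (log axis) of the 10 sialyltransferases in each library, ordered by mean level, with shNC medium in blue, shSPP1#2 medium in red and group means as lines. Levels run from 55.1 FPKM for ST6GALNAC6 to 0.888 FPKM for ST6GALNAC3, which has the widest scatter between libraries on this axis.

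The wider family holds 20 genes, of which 19 had a row. Outside the list, ST3GAL3 and ST3GAL6 also place alpha2,3-linked sialic acid on N-acetyllactosamine chains. ST3GAL3 had 20.15 to 21.55 FPKM with shNC medium and 20.28 to 21.58 with shSPP1#2 medium (log2 fold change in counts -0.0062, edgeR adjusted p = 0.995). ST3GAL6 had 4.66 to 5.05 against 4.25 to 5.11 FPKM (log2 fold change -0.072, edgeR adjusted p = 0.916). ST8SIA5, which extends gangliosides, had 9.63 ± 0.545 against 9.91 ± 0.803 FPKM (SD, n = 3; log2 fold change 0.081, edgeR adjusted p = 0.886). All 3 overlapped between groups and were expressed at the level of the listed genes.

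ST8SIA1, the GD3 ganglioside synthase, was near the limit of detection at 0.04 to 0.09 FPKM. Its interval of -0.78 to 1.06 for the log2 fold change (0.14; edgeR adjusted p = 0.978) was the widest of the tested family members. The remaining 5 had too few counts to be tested. ST6GAL2 had 3.84 to 11.40 counts per library and ST8SIA6 0 to 5.63, overlapping between groups. ST6GALNAC1 and ST6GALNAC5 had 0 counts in every shNC library, where 3 counts over the group would be 0.0507 CPM, and at most 1 count in a shSPP1#2 library. ST8SIA2, the other polysialic acid synthase, had 1 count in 1 shNC library and 0 in all shSPP1#2 libraries, where the same floor is 0.0491 CPM. Of the sialyltransferases that build polysialic acid, ST8SIA4 alone was thus detected beyond 1 count.

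Summed by linkage, the family total was 226, 229 and 229 FPKM with shNC medium and 224, 227 and 232 FPKM with shSPP1#2 medium. The group means were 228 ± 1.53 and 228 ± 4.1 (SD, n = 3), with overlapping ranges. The 6 enzymes that act on N-acetylgalactosamine made up 47.3% to 48.5% of the sum in a library, almost all of it ST6GALNAC6 and ST6GALNAC4. The 6 alpha2,3 enzymes made up 41.9% to 42.6%, the 5 alpha2,8 enzymes 6.52% to 7.21%, and the 2 that place alpha2,6-linked sialic acid on galactose 2.64% to 3.12%. These are shares of RNA, which say nothing of enzyme activity or of the glycans themselves.

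The genes around the sialyltransferases were followed in 9 lists, with 85 genes tested. Of these 85, 0 were called at an edgeR adjusted p below 0.05, beside 0% of all tested genes, and 8 had an unadjusted p below 0.05, 2 higher and 6 lower with shSPP1#2 medium. Over all tested genes that threshold was met by 6.85%, 468 higher and 460 lower, and nothing is read from the count in the lists. In all, 43 had a log2 fold change above 0 and 42 below, with a median of 0.0023 beside -0.0003 for all genes. Each value in the next paragraphs is an edgeR log2 fold change in counts, shSPP1#2 minus shNC medium.

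No gene that supplies the donor sugar was called, and neither was any other of the 13555 tested genes. Of the 5 genes that make CMP-sialic acid and carry it into the Golgi, 2 were above 0 and 3 below, with a median of -0.023. None of the 5 had an unadjusted p below 0.05, beside 6.85% of all tested genes. GNE, the rate-limiting enzyme of sialic acid synthesis, had a log2 fold change of 0.062 (adjusted p = 0.878), and SLC35A1, the Golgi CMP-sialic acid transporter, had -0.066 (adjusted p = 0.927). CMAS, which activates sialic acid to its CMP form, was at 72.2 to 76.5 FPKM over the 6 libraries, above every sialyltransferase. Among 8 genes of sialic acid removal and recycling, 2 were above 0 and 6 below (median -0.019), again with none at an unadjusted p below 0.05. NEU1, the lysosomal sialidase, was at 57.4 to 62.2 FPKM, and NEU3, the membrane sialidase that acts on gangliosides, had a log2 fold change of -0.15 (adjusted p = 0.797).

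The acceptors on which ST6GALNAC3 acts are O-glycans and gangliosides. Of 15 tested O-glycan enzymes, 10 were above 0 and 5 below (median 0.049), and 2 had an unadjusted p below 0.05, both lower, beside 6.85% of all tested genes in either direction. These were C1GALT1C1, the chaperone of core 1 synthase, at -0.15 (95% interval -0.27 to -0.024, adjusted p = 0.633), and GALNT6, an enzyme that starts O-glycans, at -0.12 (adjusted p = 0.673). Higher were GCNT3 at 0.36 (edgeR adjusted p = 0.87), with only 0.19 to 0.35 FPKM, and GALNT1 at 0.054 (edgeR adjusted p = 0.89). Of 7 glycosphingolipid synthesis genes, 4 were above 0 and 3 below (median 0.017). Among them UGCG had 0.08 (edgeR adjusted p = 0.837) and A4GALT -0.11 (edgeR adjusted p = 0.793). B4GALNT1, which adds N-acetylgalactosamine to gangliosides, was at 1.53, 1.51 and 1.59 FPKM with shNC medium and 1.28, 1.32 and 1.23 FPKM with shSPP1#2 medium. Its groups did not overlap, being lower in FPKM as were 5.05% of all tested genes, and its log2 fold change in counts was -0.23 (adjusted p = 0.729). Of 8 genes of ganglioside breakdown, 3 were above 0 and 5 below (median -0.0037). GLB1, the lysosomal beta-galactosidase, had 0.12 (adjusted p = 0.673), and ARSA had -0.11 (edgeR adjusted p = 0.786).

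The N-glycan antenna enzymes, which build the chains that ST6GAL1 and ST3GAL4 cap, had no called gene, beside 0% of all tested genes. Of 15 genes 8 were above 0 and 7 below (median 0.0023). None had an unadjusted p below 0.05, beside 6.85% of all tested genes. FUT8 had -0.1 (adjusted p = 0.756), and its groups did not overlap in CPM, being lower as were 5.5% of all tested genes. B4GALT2, a galactosyltransferase, had -0.19 (adjusted p = 0.788), MAN1A2 had 0.11 (adjusted p = 0.814) and MGAT5, which adds a branch, had 0.08 (adjusted p = 0.863). Of 5 tested fucosyltransferases of sialyl Lewis structures, 3 were above 0 and 2 below (median 0.061). FUT5 had 1.04 (95% interval 0.25 to 1.84; adjusted p = 0.618), from 0.17, 0.19 and 0.34 FPKM with shNC medium and 0.59, 0.60 and 0.32 FPKM with shSPP1#2 medium, which overlap. FUT3, FUT5 and FUT6 are close copies of each other, and the division of reads between them is uncertain. FUT4, the highest of the 5 in these libraries at 4.06 to 4.56 FPKM, had 0.061 (edgeR adjusted p = 0.907).

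Of 12 tested Siglecs, the receptors for these caps, 8 were above 0 and 4 below (median 0.03). SIGLEC5 had -0.48 (adjusted p = 0.724) and its near-identical neighbour SIGLEC14 had 0.20 (adjusted p = 0.883), a pair between which reads cannot be placed with certainty. SIGLEC1, the sialoadhesin of macrophages, had 0.35 (adjusted p = 0.886), and CD33 had -0.077 (adjusted p = 0.891). Of 10 sialylated carrier proteins 3 were above 0 and 7 below (median -0.022). SELPLG, the P-selectin ligand, was at 1.34, 1.13 and 1.16 FPKM with shNC medium and 0.91, 0.96 and 0.87 FPKM with shSPP1#2 medium (log2 fold change -0.40, adjusted p = 0.688). CCR7, a chemokine receptor that carries polysialic acid, was at 1.95, 2.21 and 2.22 against 1.49, 1.91 and 1.76 FPKM (-0.31, adjusted p = 0.725). For SELPLG and CCR7 the groups did not overlap in FPKM, as was so in this direction for 5.05% of all tested genes, and neither passed the edgeR test. NRP2, also a carrier of polysialic acid, had -0.27 (adjusted p = 0.893) at only 0.18 to 0.31 FPKM, with overlapping groups. NCAM1, a further such carrier, was at 6.19 ± 0.265 against 6.14 ± 0.42 FPKM (SD, n = 3), with -0.019 (edgeR adjusted p = 0.979).

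**Figure D4:**
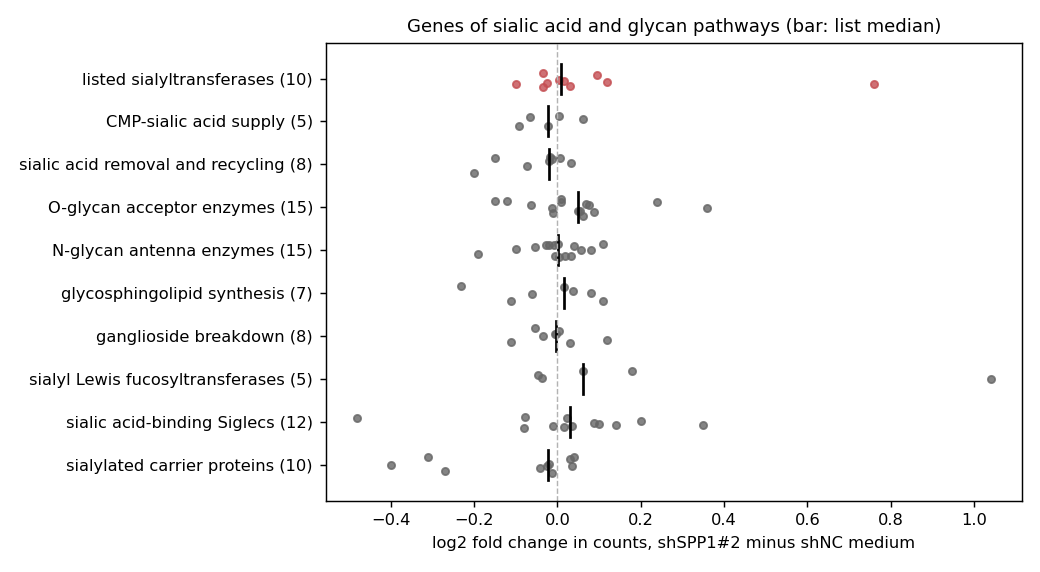
Log2 fold change in counts, shSPP1#2 minus shNC medium, of each tested gene (points) in the 10 listed sialyltransferases and the 9 pathway lists, with list medians as bars and the number tested in brackets. List medians lie between -0.023 and 0.061, and the points farthest to the right are FUT5 at 1.04 and ST6GALNAC3 at 0.76.

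The genes whose CPM pattern over the 6 libraries was most like that of ST6GALNAC3 were POLR3B, a subunit of RNA polymerase III (Pearson r = 0.997), ARFGEF2, an exchange factor of Golgi traffic (0.995), HLCS, which attaches biotin to carboxylases (0.992), UHRF1BP1 (0.989) and TMEM225B (0.987). They were the closest of 10622 tested genes, sialyltransferases left out, whose log2 CPM averaged at least 2. Of these, 207 had an r of at least 0.9. The 5 named genes had log2 fold changes in counts of 0.13 to 0.25, against 0.76 for ST6GALNAC3, as r does not depend on the size of a change. With 6 libraries in 2 groups, and the same library totals behind every gene, such r values describe the pattern of these libraries only.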

How the data were processed

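The authors deposited estimated counts per gene (not scaled, and not whole for 78.9% to 80.4% of values in a library, tolerance 0.005) and FPKM values per gene, for the same 6 libraries and 17513 genes. Per the submitters' processing notes, the tools were HISAT2 2.0.4, Bowtie2 2.2.5 and RSEM and the build was GRCh38.p13. Their roles are not stated. Strand use, annotation release, filters and the transcript length behind the deposited FPKM were not given in the sources used here. RSEM-type division of reads can move counts between similar genes and transcripts. In the FPKM values, 20 stray lines of text were dropped.

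Rounded estimated counts passed filterByExpr and TMM scaling and entered glmQLFTest of edgeR 4.0.16 in R 4.3.3 (a quasi-likelihood test), with Benjamini-Hochberg adjustment over all 13555 genes. Intervals are 95% intervals of that fit and include the fitted spread between libraries, and a floor of 3 counts covers counting error only. The biological coefficient of variation was 4.54%. The fit was also tested on simulated counts. Replicates differed by more than counting noise (chi-square per degree of freedom 3.2 to 4.33), so none was counted as a repeat deposit. Alternatives were other scalings and filters, a replicate block, DESeq2 1.42.0, limma 3.58.1 on log2(FPKM + 1) and log2(FPKM + 0.1), and each library left out. The members and gene lists were chosen with earlier results of these data known. Named genes were all sialyltransferases, up to 4 genes of smallest p per pathway list and the 5 genes most like ST6GALNAC3 by Pearson correlation of log2 CPM (prior count 2). CMAS, NEU1 and NCAM1 fall outside that rule and were named after their levels were seen. Plots were drawn with matplotlib 3.10.9.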

Additional observations from a re-analysis of the deposited data

How the results depend on the processing

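The count of all called genes, 0 in the edgeR test, was 18 with no filter on low counts, 59 with a replicate block and 13 with DESeq2, and 1 to 10 with each library left out. Among the 10 sialyltransferases 1 was called with no filter and 1 with the replicate block, in both cases ST6GALNAC3. That gene was chosen for its difference, so nothing is read from these calls. In their deviations from the group means, same-numbered libraries had correlations of 0.220, 0.294 and 0.092, and differently numbered ones -0.273 to 0.104. The highest of the latter, 0.104, was that of shSPP1#2 replicate 3 with shNC replicate 1. Whether the numbers pair the libraries was not tested, and the edgeR test above treats them as unpaired. With the replicate block, 1461 genes had an unadjusted edgeR p below 0.05, against 928 without it. The pathway lists gave 0 calls under every alternative run, each over the genes of the lists that its filter kept (70 to 94, against 85 in the edgeR test). DESeq2 leaves genes of low mean counts without an adjusted p. Of 165 list medians under the alternatives, 11 moved by at least the SD of the list's mean log2 CPM within groups. Some of these changed sign with 1 library left out. CMP-sialic acid supply went from -0.023 to 0.02 without shNC replicate 2. The Siglecs went from 0.03 to -0.032 without shNC replicate 1, and glycosphingolipid synthesis from 0.017 to -0.031 without shNC replicate 3. The log2 fold change of ST6GALNAC3 was 0.61 to 0.88 with each library left out and 0.29 by limma on log2(FPKM + 1) without a filter, a scale that understates changes of low genes; its mean FPKM lies below 1, the minimum of the 2 filtered limma fits, which give it no value. The sign turned, always near 0, for ST3GAL1 (-0.029 to 0.07), ST3GAL5 (-0.028 to 0.049) and ST6GALNAC4 (-0.022 to 0.024) when 1 library was left out, and the cause was not tested. In the order of levels, ST6GAL1 and ST6GALNAC2 swapped without shNC replicate 1 or shSPP1#2 replicate 3, ST3GAL5 and ST3GAL4 swapped without shSPP1#2 replicate 1, and non-overlapping neighbours numbered 5 to 6. Over the alternatives the smallest adjusted p among the other 9 genes was 0.509, for ST6GAL1. Depth limits the family members of few counts: ST6GAL2, ST8SIA6, ST6GALNAC1, ST6GALNAC5 and ST8SIA2 were not tested, and ST8SIA1 was tested with a wide interval.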
